A study of Canis lupus familiaris with 34 samples.

Results

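Primary osteosarcoma cell lines from 10 Rottweilers were compared with primary lines from 7 Golden Retrievers, chosen by the breed label of each line. Osteosarcoma is a malignant bone tumour, and both are large breeds in which it is common. The 17 dogs gave 18 of the 34 arrays of the series, which covers 31 dogs. The Rottweilers were 7 males and 3 females with an age label from 2 to 11.19 (median 7.64), and the Golden Retrievers were 3 males and 4 females with an age label from 2.67 to 9.8 (median 7.8). The unit of age is not stated in the labels, and neutered and intact dogs were pooled within a sex. Golden Retriever line 5 is the average of both line arrays of its dog. Levels are log2 of GCRMA intensity from Affymetrix Canine_2 arrays, and differences are Rottweiler minus Golden Retriever on that log2 scale. Each value describes a cultured population, so fewer cells of a type and less RNA per cell cannot be told apart. A treatment label of the dog, in abbreviations not spelt out, was SOC in 4 Rottweilers and 4 Golden Retrievers, AMP in 1 and 1, PALL in 2 and 0, SOC with a mark for death before the end or the start of chemotherapy in 1 and 1, and missing in 2 and 1. Cells were cultured or came from frozen cultures per the labels, and the p-values measure the spread between lines of different dogs. A further 6 primary lines served as a reference group and are called other-breed lines. They came from a Saint Bernard, 2 German Shepherds, a Great Pyrenees, a Mastiff and an Alaskan Malamute. By label the German Shepherds and the Malamute were males and the others females. The Malamute had no age label, and the other ages lay within the Rottweiler range. Treatment was AMP in the Saint Bernard, ABX in the Malamute alone, and SOC in the rest, with the death mark in 1 German Shepherd. Of the samples outside the test, the metastatic Rottweiler lines were from a male and a female, and the Golden Retriever tissues from females.

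Dog breeds are closed populations with long stretches of shared haplotype, so lines of one breed share inherited variants. Each line also carries the acquired changes of its own tumour. A transcript can therefore differ between breeds through inherited regulation or through the tumours themselves. A short-probe array also reads less signal where a variant lies under a probe. The probe sequences were not used here, and the part of probe polymorphism in the differences below was not tested.

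Of the bone markers, the type I collagen chains were high in all 17 lines and the markers of mature osteoblasts were not. COL1A1, a chain of type I collagen, was 13.56 to 14.08 in Rottweiler lines and 12.59 to 13.99 in Golden Retriever lines. The other chain, COL1A2, was 14.23 to 14.59 and 13.83 to 14.55. ALPL, the alkaline phosphatase of mineralising osteoblasts, was over 5 in 3 Rottweiler lines and in 0 Golden Retriever lines (medians 2.51 and 2.93). RUNX2, the osteoblast transcription factor, was over 5 in 5 and 0 lines, BGLAP, the bone hormone osteocalcin, in 3 and 1, and IBSP, bone sialoprotein, in 0 and 0. Of 12 tested leukocyte genes, 10 were below 5 in every line, among them PTPRC, the common leukocyte antigen. JCHAIN, the joining chain of immunoglobulins, was over 5 in all 17 lines (lowest 8.74 and 8.14, median 9.18 and 9.16 in Rottweiler and Golden Retriever lines), and LYZ, lysozyme, reached 5.14 in 1 Rottweiler line. The mean level of these genes was 2.84 to 3.84 in Rottweiler and 2.83 to 3.02 in Golden Retriever lines. Rottweiler line 3 had the highest mean leukocyte (3.84), endothelial (4.41) and osteoclast (6.98, against 4.65 to 5.61 in the other 16) marker levels. Without this line neither MFAP3 nor ZBED1 was called. The same held without Rottweiler line 9 or Golden Retriever line 1, 2 or 4, as given below. Array column medians did not differ by the exact permutation test (8.33 ± 0.147 SD, n = 10, against 8.30 ± 0.101, n = 7, in linear intensity; p = 0.612). The 3′ minus 5′ difference of actin, a measure of RNA integrity, was larger in Golden Retriever lines (1.84 ± 0.95 SD, n = 7) than in Rottweiler lines (0.77 ± 0.49, n = 10; two-sided exact permutation p = 0.00684, adjusted over 4 measures 0.0274). With the other 5′ probe set of actin the Rottweiler minus Golden Retriever difference was -0.585 (exact permutation p = 0.134, adjusted 0.179). That of GAPDH ran the other way, at 3.27 in Rottweiler and 2.96 in Golden Retriever lines (exact permutation p = 0.0264, adjusted 0.0528). Values with the first actin measure as a covariate are given for both called genes, the 18 genes next in p, the cell cycle and elastic fibre lists and chromosome 14, but not for the other lists.

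Of 7812 genes tested by limma with sex as a covariate, 2 passed an adjusted p of 0.05 (0.0256%), MFAP3 lower and ZBED1 higher in Rottweiler lines (1 gene in each direction, 0.0128%). The number of breed calls depended on the setting, at 271 with array weights, 0 with no filter on dim probe sets and 0 with the closest pair of Rottweiler lines averaged. Within title prefix 2, a possible batch, MFAP3 and ZBED1 both had an adjusted p of 0.102. With the actin measure as a covariate 226 genes were higher and 157 lower at an unadjusted p under 0.05. At an unadjusted p under 0.05 there were 852 genes (10.9%), of which 556 were higher in Rottweiler lines (7.12%) and 296 lower (3.79%). The median difference of all genes was 0.07. The ranges of the breeds did not overlap for 5 genes (0.064%), of which 3 were higher in Rottweiler lines (0.0384%) and 2 in Golden Retriever lines (0.0256%). The plot of difference against p shows the distance between MFAP3 and ZBED1 and the rest of the genes.

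**Figure D1:**
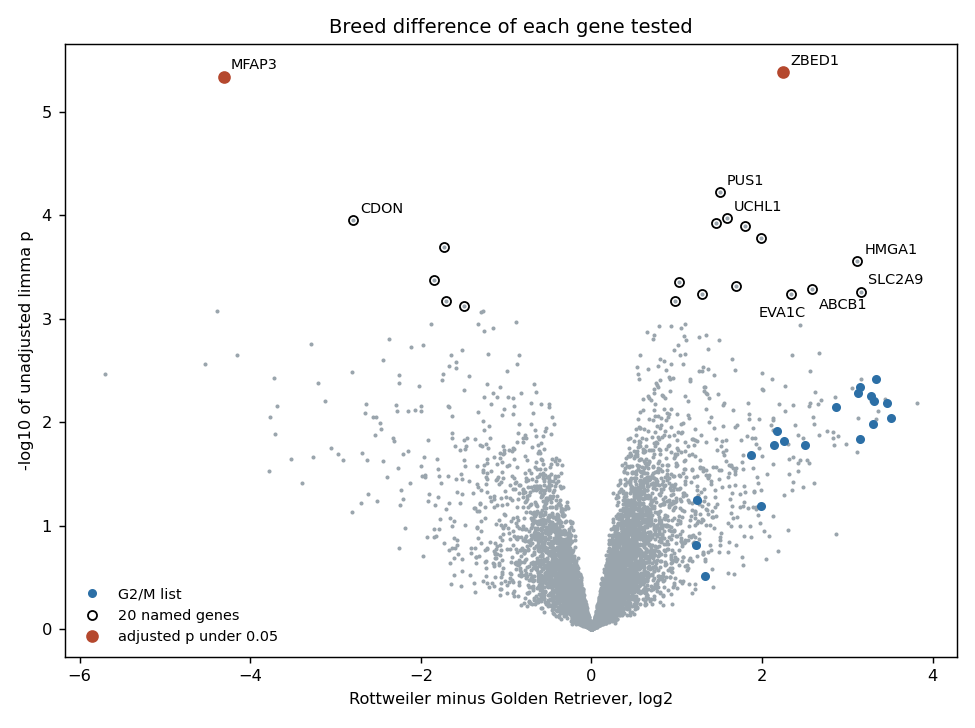
Each point is 1 of 7812 genes, placed by its Rottweiler minus Golden Retriever difference (x axis, log2) and by minus log10 of its unadjusted limma p (y axis). MFAP3 and ZBED1 (red) are the 2 genes with an adjusted p under 0.05, the open circles are the 20 named genes, and the G2/M genes (blue) lie to the right with p-values that do not pass after adjustment.

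MFAP3 encodes a membrane glycoprotein first described with the microfibrils of elastic tissue. In Golden Retriever lines 1 to 7 its level was 8.5, 8.89, 7.33, 8.05, 7.73, 2.85 and 7.37. In Rottweiler lines it was 2.34 at the lowest, 2.97 at the median and 4.27 at the highest. All Golden Retriever lines but line 6 were above every Rottweiler line, and line 6 lay within the Rottweiler range. MFAP3 fell by 4.31 in Rottweiler against Golden Retriever lines (SE 0.646, 19.8-fold; limma adjusted p = 0.0178). The other-breed lines were between 2.56 and 3.87, so that it was the Golden Retriever group that stood apart. In 1 fit of all 3 groups the difference of Golden Retriever minus other-breed lines was 4.27 (limma adjusted p = 0.00907). In that fit Rottweiler minus other-breed lines was 0.04 (limma unadjusted p = 0.953).

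The samples outside the test gave a mixed picture for MFAP3. Both metastasis-derived lines of Rottweilers were low, at 2.76 and 2.53. Tumour tissue of a Golden Retriever that has no line in the test had 10.11, higher than any other sample. Tissue of the dog of Golden Retriever line 6 had 3.11, low like its line. Tissue of the dog of line 5 had 4.54, against 7.73 in the line. The 3 tissues of other breeds had 3.08, 2.54 and 3.24. A second probe set of MFAP3, with levels of 1.51 to 3.18 in Rottweiler and 1.89 to 7.77 in Golden Retriever lines, differed by -3.27 (limma adjusted p over all kept probe sets = 0.149). Both probe sets were over the filter level of 5 in Golden Retriever samples alone. The filter thus kept MFAP3 through the breed in which it was high.

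ZBED1 encodes a BED-type zinc-finger protein that arose from a transposase and binds promoters of genes used in growth. In Rottweiler lines its level was 4.77 at the lowest, 5.44 at the median and 5.98 at the highest. In Golden Retriever lines 1 to 7 it was 3.52, 2.45, 4.39, 2.21, 2.52, 2.55 and 4.12. Each Rottweiler line was above each Golden Retriever line, at levels close to the log2 intensity of 5 used as the filter. ZBED1 rose by 2.24 in Rottweiler against Golden Retriever lines (SE 0.333, 4.73-fold; limma adjusted p = 0.0178). Other-breed lines spread over both ranges, from 2.32 to 5.96. Against them ZBED1 differed by 0.87 in Rottweiler lines (limma adjusted p = 0.546) and by -1.23 in Golden Retriever lines (adjusted p = 0.839). The metastatic lines of Rottweilers had 6.05 and 5.81, and the Golden Retriever tissues had 5.03, 4.59 and 2.89. The second probe set of ZBED1 differed by 1.43 (limma adjusted p over all kept probe sets = 0.149).

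**Figure D2:**
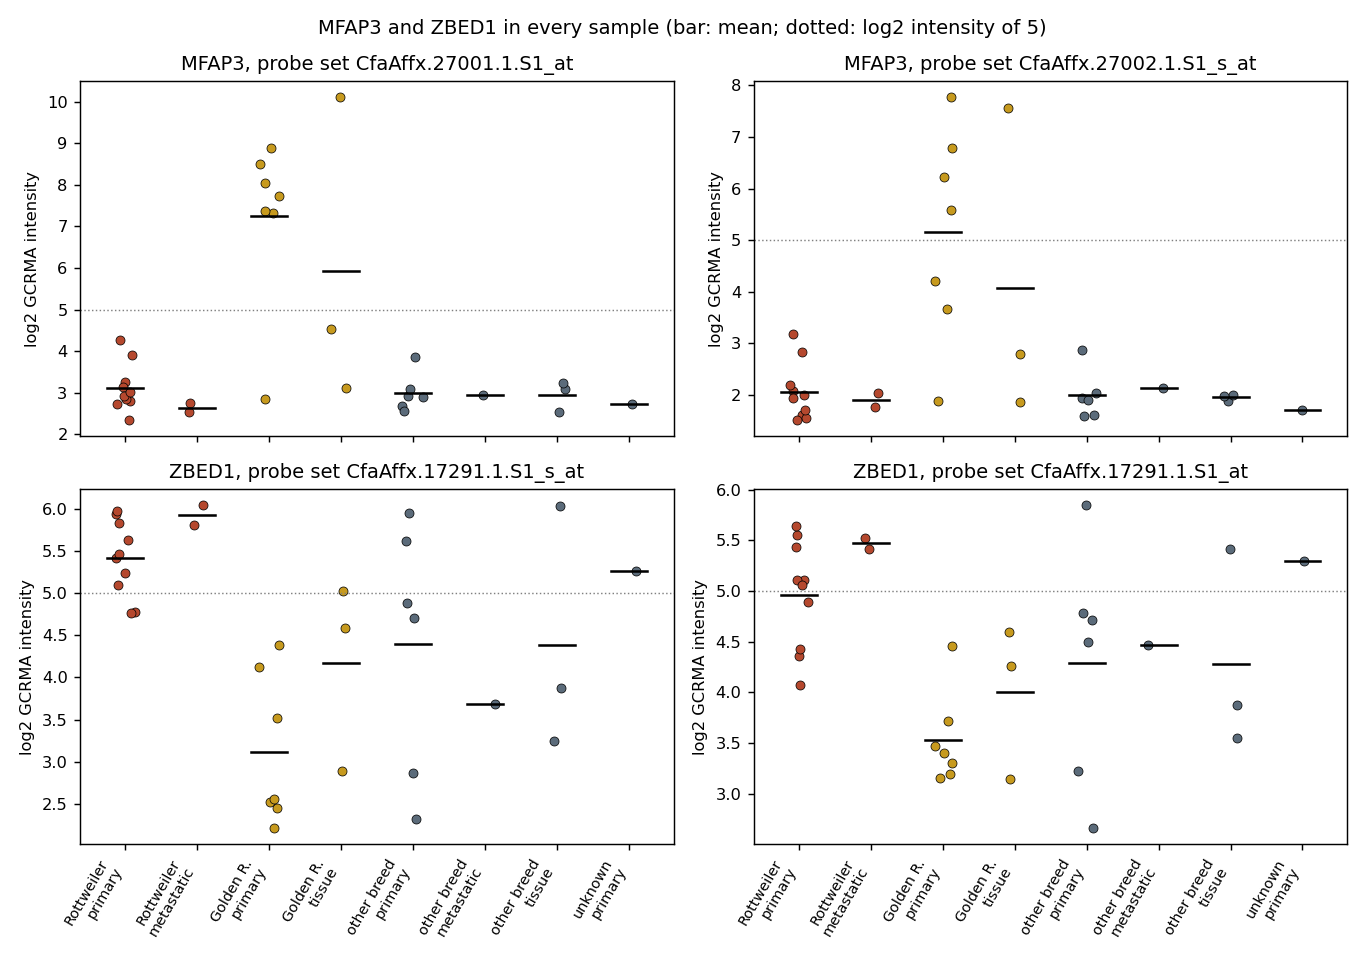
Log2 GCRMA intensity (y axis) of the 2 probe sets of MFAP3 (upper row) and of ZBED1 (lower row) in every sample, grouped by breed and kind of sample (x axis), with the mean as a bar and the filter level of 5 dotted. In the first MFAP3 panel 6 of 7 Golden Retriever lines lie between 7.33 and 8.89 and the 10 Rottweiler lines between 2.34 and 4.27.

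Leaving out each of the 17 lines in turn kept the size of both differences, at -4.88 to -4.02 for MFAP3 and 2.06 to 2.52 for ZBED1. MFAP3 was called in 10 of these 17 fits and ZBED1 in 12. Neither gene was called without Rottweiler line 3 (adjusted p = 0.0743 for both), without Rottweiler line 9 (0.0677), without Golden Retriever line 2 (0.0809) or without line 4 (0.0532). Without Golden Retriever line 1 the adjusted p was 0.0781 for MFAP3 and 0.0507 for ZBED1. MFAP3 alone lost its call without Golden Retriever line 3 (0.0679) or line 7 (0.0563). Without Golden Retriever line 5 there were 5 calls, the others being PUS1 (adjusted p = 0.046), HMGA1 and CENPS (0.0282 each). Leaving out Golden Retriever line 6, whose MFAP3 was low, gave MFAP3 -4.88 and an adjusted p of 6.13e-07. With the actin measure as a covariate MFAP3 was -5.69 (limma adjusted p = 0.000336) and ZBED1 was 2.28 (0.282). Golden Retriever line 6 also had the largest actin measure of the 17 lines, 3.23, so the covariate fit of MFAP3 is not separate from the low level of that line.

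The tested neighbours of both genes had smaller differences. On chromosome 4 the 3 tested genes on each side of MFAP3 (CNOT8, LARP1, SAP30L, FAM114A2, G3BP1 and TNIP1) differed by -0.26 to 0.44, and none had an unadjusted p under 0.05. On the X chromosome ZBED1 lies between DHRSX (-0.03) and CD99 (0.17). ARSD, a sulfatase gene 3 places away, was lower in Rottweiler lines by 1.18, with an unadjusted limma p of 0.00665 and an adjusted p of 0.319. Over the 9 tested genes of the X tip, ZBED1 and ARSD were the ones with an unadjusted p under 0.05, against 10.9% of all genes. The sex labels were not checked, and the 3 tested genes of the sex-linked list, KDM6A, EIF2S3 and DDX3X, were compared by breed only.

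A further 18 genes had the next smallest p-values and were not called (adjusted p from 0.143 to 0.294). With the actin measure as a covariate each of them had an adjusted p of 0.801 and kept its direction. PUS1, a synthase that converts uridine to pseudouridine in transfer RNA, was 9.97 to 11.14 in Rottweiler lines (median 10.42) and 7.90 to 9.72 in Golden Retriever lines (median 8.60). Its ranges did not overlap, and the difference was 2.84-fold (SE 0.281 on the log2 scale; limma adjusted p = 0.143). Without the sex covariate PUS1 became a call (adjusted p = 0.0474). The other kept probe set of PUS1 differed by -0.31, in the other direction (limma unadjusted p = 0.256). The metastatic lines of Rottweilers had 10.49 and 10.59 and the Golden Retriever tissues 9.29, 9.83 and 9.4, while other-breed lines ran from 8.09 to 11.65.

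ABCB1 encodes P-glycoprotein, the efflux pump that carries many cytotoxic drugs, among them doxorubicin, out of cells. Its level in Rottweiler lines was 4.68 at the lowest, 6.59 at the median and 8.44 at the highest. In Golden Retriever lines 1 to 7 it was 5.77, 4.9, 3.25, 4.44, 2.87, 3.08 and 3.66. All 10 Rottweiler lines lay above the Golden Retriever median, although the ranges overlapped. The difference was 2.58 (SE 0.6; limma adjusted p = 0.265), on the 1 kept probe set of the gene, and 1.67 with the actin measure as a covariate. Other-breed lines ran from 3.15 to 8.23, and the metastatic Rottweiler lines had 8.72 and 5.3. Its 3 tested neighbours on one side, ELAPOR2, CROT and ABCB4, differed by 0.27, 0.60 and 0.51, and those on the other, SLC25A40, DBF4 and SRI, by -0.24, 0.98 and 0.17. Their unadjusted limma p-values were 0.0591 and above.

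Several of the other genes with small p-values act in signalling and at the cell surface. UCHL1, a ubiquitin hydrolase abundant in neurons, was 11.81 to 13.53 in Rottweiler and 10.08 to 12.27 in Golden Retriever lines (difference 1.58, SE 0.313). ERRFI1, a feedback inhibitor of the EGF receptor, differed by 1.98 (SE 0.41). CADM1, a cell adhesion molecule, differed by 1.30 (SE 0.306), and both its other kept probe sets had the same direction. SLC2A9, the urate transporter whose mutation causes hyperuricosuria in dogs, was 4.19 to 9.06 in Rottweiler and 2.44 to 5.12 in Golden Retriever lines (difference 3.15, SE 0.738). EVA1C, a membrane protein that binds heparin, was 3.55 to 6.05 in Rottweiler lines and 1.64 to 5.75 in Golden Retriever lines (difference 2.34, SE 0.55). Without Golden Retriever line 1, the one at 5.75, EVA1C became a call (limma adjusted p = 0.00256). CDON, a co-receptor of hedgehog signals, was lower in Rottweiler lines by 2.79 (SE 0.554), at 3.06 to 6.75 against 5.01 to 8.56. Without Rottweiler line 6, the highest of its breed, CDON became a call (limma adjusted p = 0.0384).

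The others were spread over metabolism, traffic and the nucleus. HMGA1, an architectural chromatin protein, was 9.14 to 11.12 in Rottweiler and 4.24 to 10.04 in Golden Retriever lines (difference 3.11, SE 0.677). AKR1B1, aldose reductase, was 11.75 to 12.62 against 9.63 to 11.77 (difference 1.02, SE 0.234), and its other probe set differed by 1.24. PLEKHA8, which carries glycolipids through the Golgi, differed by 1.46, and DNPEP, an aspartyl aminopeptidase, by 1.80. CENPS, a centromere and DNA repair protein, differed by 1.70, and TTC19, an assembly factor of respiratory complex III, by 0.98. Lower in Rottweiler lines were ITSN1, an endocytic scaffold (-1.73), GULP1, an adaptor for engulfment of dying cells (-1.85), DAPK1, a death-associated kinase (-1.70), and WDR53 (2.82-fold). Of the 20 genes 12 had another kept probe set, 14 sets in all, and 13 of these had the same direction. Of those 13, 11 had an unadjusted limma p under 0.05, and PUS1 was the exception in direction. These probe sets read the same genes on the same arrays that chose the 20, so they are not separate support. The share over all genes with several kept probe sets was not computed. The plot of the 20 genes by line shows how far each breed spreads.

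**Figure D3:**
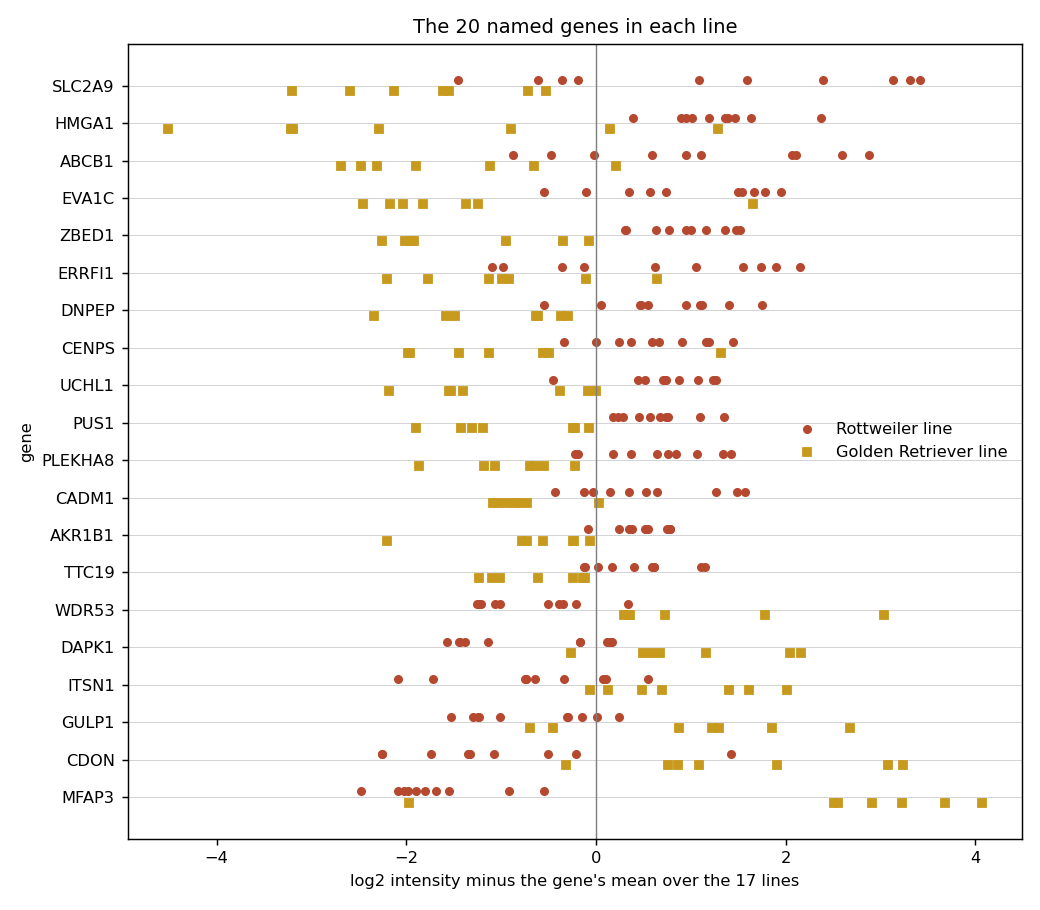
Levels of the 20 genes with the smallest p (y axis) in each Rottweiler line (circles) and Golden Retriever line (squares), as log2 intensity minus the gene's mean over the 17 lines (x axis). For ZBED1 and PUS1 the circles and squares do not overlap; for MFAP3, 6 of the 7 squares lie far to the right.

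The remaining genes without overlap were TBCB, a tubulin chaperone, and HADH and BRK1, named after their values were seen. TBCB was 11.04 to 11.62 in Rottweiler and 9.71 to 11.04 in Golden Retriever lines (difference 0.60; limma adjusted p = 0.319), the nearest values being equal at 2 decimals. HADH, an enzyme of fatty acid oxidation, was 8.48 to 10.08 in Rottweiler and 10.15 to 10.83 in Golden Retriever lines (difference -0.85; adjusted p = 0.306). BRK1, a subunit of the WAVE actin complex, was 10.37 to 11.28 and 11.31 to 11.76 (difference -0.46; adjusted p = 0.335). The second probe set of HADH differed by -0.74 and the other probe sets of BRK1 by -0.62 and -0.44. These are small differences in abundant transcripts.

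Cell cycle genes had the largest share of higher members among the lists. Of 19 tested genes of the G2/M list, which act in chromosome segregation and mitosis, 15 were higher in Rottweiler lines at an unadjusted limma p under 0.05, against 7.12% of all genes, and 0 were lower. Their median difference was 2.87, against 0.07 for all genes, and all 19 were positive. No member passed after adjustment (adjusted p of 0.311 and above). CCNB2, a mitotic cyclin, differed by 3.51, CDC20, an activator of the anaphase-promoting complex, by 3.46, and KIF11, a spindle kinesin, by 3.33. Of 27 tested genes of G1/S and replication, 16 were higher and 0 lower (median difference 1.34), among them RRM2, a ribonucleotide reductase subunit (3.34), ORC1, of the origin recognition complex (2.98), and MCM3, of the replicative helicase (2.62). NCAPG, a condensin subunit on the list of body size and coat genes, differed by 2.60. It was the 1 of 12 members of that list with an unadjusted p under 0.05, against 10.9% of all genes.

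The Golden Retriever lines varied widely in cell cycle genes. The mean level of the G2/M list in Golden Retriever lines 1 to 7 was 5.65, 5.73, 3.99, 3.92, 9.99, 3.48 and 9.05. In Rottweiler lines it was 5.59 at the lowest, 8.37 at the median and 9.93 at the highest. Golden Retriever lines 5 and 7 were above the Rottweiler median, and the Rottweiler range lay within the Golden Retriever range. Other-breed lines ran from 4.18 to 10.09. Against these, 5 of 19 G2/M genes were higher in Rottweiler lines (background 6.84%) and 0 were lower in Golden Retriever lines (background 2.27%). The count of 15 fell to 6 with the actin measure as a covariate and to 0 in females alone. With the actin measure fewer of all genes were higher as well, as given above. The fit in females alone had 3 Rottweiler and 4 Golden Retriever lines, and its share over all genes is not given here. The G1/S count of 16 fell to 8 without Golden Retriever line 3, to 6 with the actin measure and to 0 in females alone. Golden Retriever lines 5 and 7 are females.

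**Figure D4:**
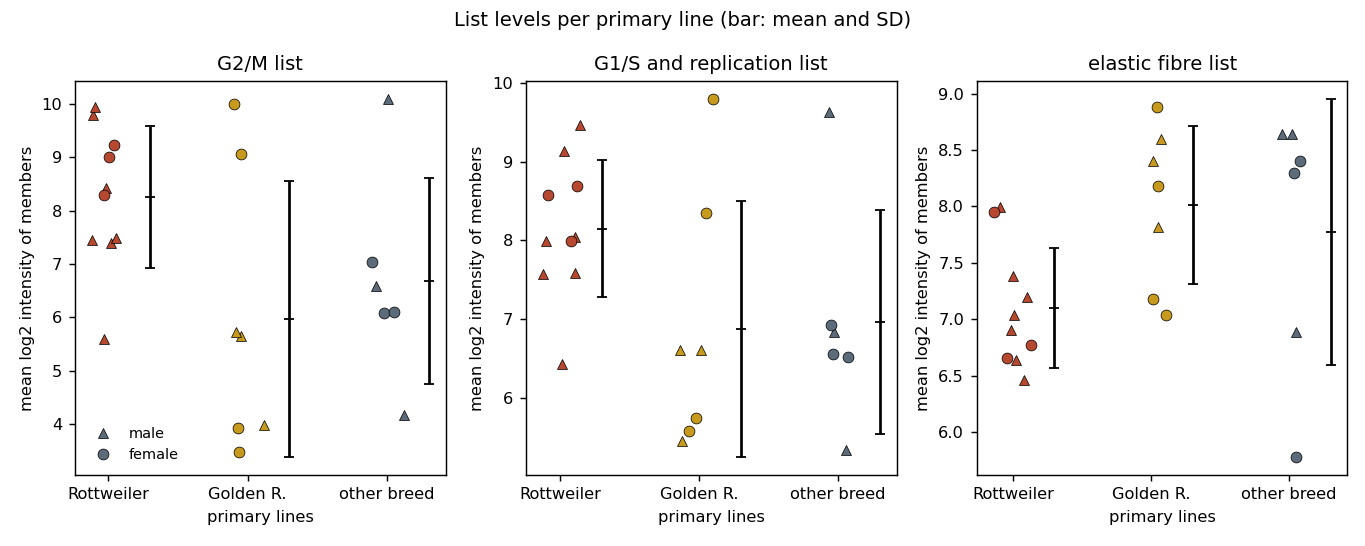
Mean log2 intensity of the tested members of the G2/M, G1/S and replication, and elastic fibre lists (y axes) in each primary line by breed group (x axis), with males as triangles and females as circles, and the mean and SD as a bar. The G2/M level of the 7 Golden Retriever lines runs from 3.48 to 9.99 and that of the 10 Rottweiler lines from 5.59 to 9.93.

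Genes of elastic fibres and microfibrils went both ways. Of 21 tested members, 6 were lower in Rottweiler lines at an unadjusted p under 0.05 (background 3.79%) and 1 was higher. In all, 13 members were negative and 8 positive, with a median difference of -0.27. MFAP3, which the filter kept through Golden Retriever samples alone, was the one that passed after adjustment. EFEMP1, a fibulin of the extracellular matrix, was 3.63 at the lowest, 8.86 at the median and 11.32 at the highest in Rottweiler lines, and 9.99, 12.59 and 14.05 in Golden Retriever lines. Its difference was -4.39 (SE 1.08; limma adjusted p = 0.294), and that of its other probe set -3.48. MFAP5, a microfibril glycoprotein, differed by -3.78. LOX, the crosslinking enzyme of collagen and elastin, MFAP4 and FBLN2 were chosen after their values were seen and differed by -1.97, -3.21 and -2.31. LTBP1, which binds latent TGF-beta to microfibrils, was the higher one, by 1.10. The mean level of the list was 7.10 ± 0.54 (SD, n = 10) in Rottweiler lines, 8.01 ± 0.70 (SD, n = 7) in Golden Retriever lines and 7.78 ± 1.18 (SD, n = 6) in other-breed lines. Against other-breed lines 4 members were lower in Rottweiler lines (background 2.78%), and in Golden Retriever lines 1 was higher (background 2.98%) and 1 lower. With the G2/M level as a covariate, 3 of 21 members were lower, and 3 were lower in females alone. With the actin measure the count was 5, while fewer of all genes were lower as well.

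Interstitial matrix genes mostly had negative differences. Of 20 tested, 16 were negative, with a median of -0.55, and 2 were lower at an unadjusted p under 0.05 (background 3.79%) and 0 higher. COL12A1, a fibril-associated collagen, was lower in Rottweiler lines by 1.44 (limma adjusted p = 0.311). MATN2, a matrilin of the cartilage list, was 2.39 to 8.36 in Rottweiler and 5.72 to 11.25 in Golden Retriever lines (difference -4.16, SE 1.15, limma adjusted p = 0.306). It was the 1 of 7 members with an unadjusted p under 0.05, against 10.9% of all genes. Of 17 hypoxia and glycolysis genes 13 were negative and 2 were lower at that threshold (background 3.79%), EGLN3, an oxygen-sensing hydroxylase (-1.65), and ADM, adrenomedullin (-1.33). MEIS2, a homeobox partner of HOX proteins, differed by -1.95.

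Among genes of bone and of osteosarcoma, RUNX2 was 3.77 to 6.28 in Rottweiler and 3.50 to 4.48 in Golden Retriever lines (difference 1.15, SE 0.343; limma adjusted p = 0.311). SPP1, the bone matrix protein osteopontin, was 2.77 to 9.68 and 2.74 to 5.38 (difference 2.48; adjusted p = 0.443). These were the 2 of 14 bone genes higher at an unadjusted p under 0.05 (background 7.12%), and 10 of the 14 were positive. Of 25 osteosarcoma genes 3 were higher (background 7.12%), RUNX2, CCNE1, the G1 cyclin E (1.84), and WIF1, a secreted Wnt inhibitor. WIF1 was 2.68 at the lowest, 8.09 at the median and 10.20 at the highest in Rottweiler lines, and 2.52, 4.40 and 6.09 in Golden Retriever lines (difference 3.30, SE 1.06; adjusted p = 0.319).

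Genes of the ABC transporter family and RNA-modifying enzymes were looked at around ABCB1 and PUS1. Of 16 tested ABC family genes 4 were higher in Rottweiler lines (background 7.12%) and 0 lower (background 3.79%), with a median of 0.16. The 4 were ABCB1 itself, ABCC1, ABCF2 (0.61) and ABCF1 (0.55). ABCC1, the multidrug resistance pump MRP1, was 4.19 to 7.86 in Rottweiler and 3.71 to 5.09 in Golden Retriever lines (difference 1.48, SE 0.462), but its second probe set differed by 0.28 (limma unadjusted p = 0.329). The 2 negative members were ABCA8, a lipid transporter, at -1.83 (limma unadjusted p = 0.0636), and the drug pump ABCG2, at -0.91 (0.127). Of 10 pseudouridine synthases, a list drawn up around PUS1, 3 were higher (background 7.12%), PUS1 itself, DKC1, the catalytic subunit of box H/ACA particles (1.64), and TRUB2, a mitochondrial enzyme (0.54).

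Interferon-response genes were high in some Rottweiler lines. All 15 tested interferon-response genes were positive, with a median of 1.61, and 2 of them, GBP5 (2.57) and HERC6 (2.00), had an unadjusted limma p under 0.05 (background 7.12%). Their mean level was 8.55, 6.92, 10.34 and 6.86 in Rottweiler lines 4, 5, 9 and 10, and 4.54 to 5.76 in the others. Golden Retriever lines lay between 4.66 and 5.80. Of 13 class I antigen presentation genes 2 were higher (median 0.45; background 7.12%), and of 7 class II genes 1, DLA-DMA, a peptide-loading chaperone (1.22). CCL2, the chemokine that attracts monocytes, and PTGS2, the inducible cyclooxygenase, were the 2 of 11 inflammatory genes with an unadjusted p under 0.05 (background 7.12%), with differences of 2.55 and 2.52. Rottweiler lines 4, 5, 9 and 10 also had the highest mean level of the 4 tested epithelial markers, 6.98, 6.19, 6.87 and 7.66, against 3.64 to 5.14 in the other 13 lines, and EPCAM was over 5 in 3 Rottweiler lines. With 1 line left out at a time, the difference of the interferon-response gene MX1 lay between 1.0 and 2.9, and that of ISG15 between 0.80 and 2.96. That of GBP5 lay between 2.21 and 3.03, and that of HERC6 between 1.51 and 2.22. A fit without all 4 of these lines was not run.

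Of 32 genes of oxidative phosphorylation 28 were positive (87.5%, against 57.7% of all genes), with a median of 0.22, and 3 were higher at an unadjusted p under 0.05 (background 7.12%). Of 16 cholesterol synthesis genes 0 had an unadjusted limma p under 0.05. The same held for 12 leukocyte, 9 endothelial, 12 smooth muscle, 4 epithelial and 5 osteoclast markers, with medians between -0.36 and 0.40. Of the smooth muscle markers 11 were negative, and all 4 epithelial markers were positive. The mean level of endothelial markers was 3.11 to 4.41 in Rottweiler and 3.27 to 3.99 in Golden Retriever lines, and that of smooth muscle markers 7.44 to 10.57 and 8.44 to 10.15.

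Genes of chromosome 14 leaned towards the Rottweiler lines, a chromosome picked after the values of all chromosomes were seen. Of its 132 tested genes 24 were higher in Rottweiler lines at an unadjusted p under 0.05 (18.2%, against 7.12% of all genes) and 1 was lower, LEP, the leptin gene (-2.63). Their median difference was 0.42, and 81.8% were positive against 57.7% of all genes. ABCB1, PLEKHA8 and AKR1B1 are on this chromosome. The higher genes were spread along it, with 10, 8 and 6 in its first, middle and last 44 tested genes. The mean level of its genes was 7.60 to 8.99 in Rottweiler and 7.25 to 7.94 in Golden Retriever lines, and Rottweiler lines 9 and 10 were highest. The count of 24 was 12 without Rottweiler line 9, 15 without Golden Retriever line 3 and 15 without line 4. It was 12 with the G2/M level as a covariate and 12 with the actin measure, with which fewer of all genes were higher as well. Against other-breed lines the median was 0.14 in Rottweiler lines, near the 0.10 of all genes and below the 0.28 of the X chromosome, and -0.14 in Golden Retriever lines, against 0.03 for all genes. On chromosome 25, also picked after the values were seen, 18 of 139 genes were lower in Rottweiler lines (12.9%, against 3.79%). Its median difference was -0.10, and that of chromosome 21 was -0.12. Against other-breed lines the chromosome 25 median was 0.16 in Rottweiler and 0.28 in Golden Retriever lines. The mean level of its genes was lowest in Rottweiler lines 5, 9 and 10 (7.62, 7.53 and 7.33).

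**Figure D5:**
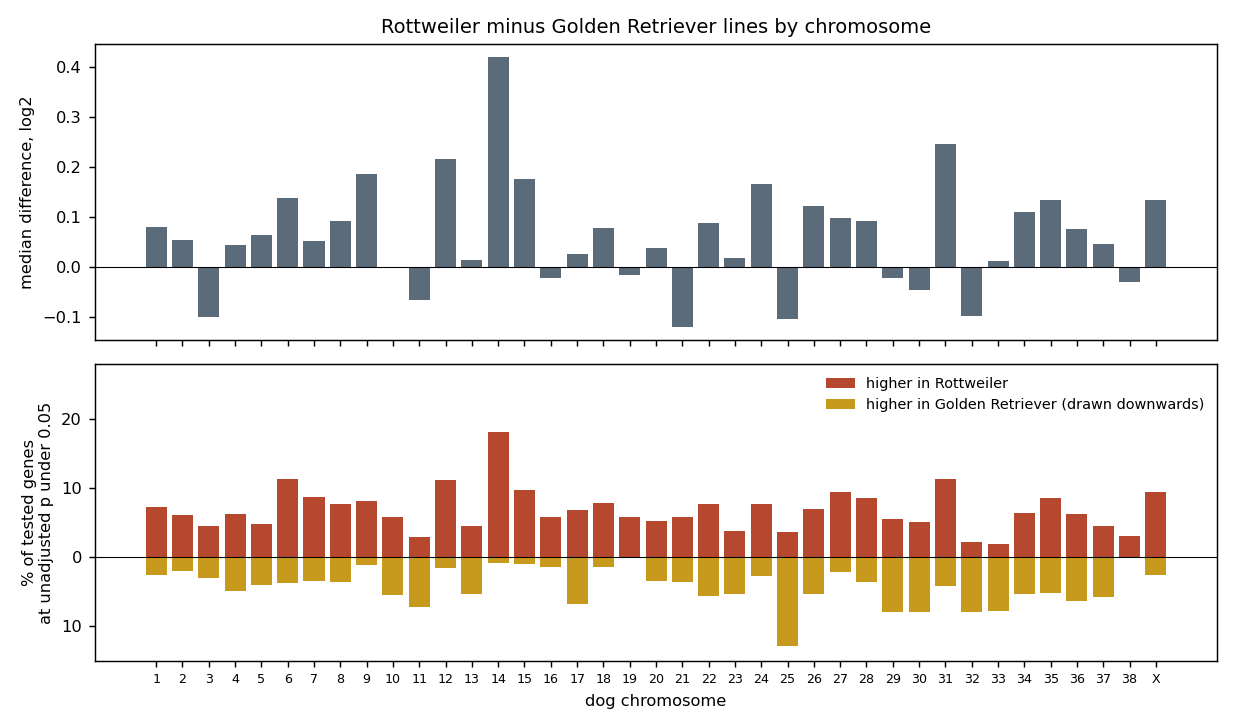
Median Rottweiler minus Golden Retriever difference of the tested genes of each dog chromosome (upper panel, log2), and the percentage of them higher in each breed at an unadjusted p under 0.05 (lower panel, Golden Retriever drawn downwards). Chromosome 14 has a median of 0.42 and 18.2% of its genes higher in Rottweiler lines, and chromosome 25 has 12.9% lower.

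Set against the other-breed lines, Rottweiler lines had 0 calls by limma (751 genes, 9.61%, at an unadjusted p under 0.05). Golden Retriever lines had 1 call (0.0128%), MFAP3, and 410 genes (5.25%) at an unadjusted p under 0.05. Both comparisons share the other-breed lines, and share lines with the breed comparison. A test of whether the breed difference differed between males and females gave 0 calls by limma (178 genes, 2.28%, at an unadjusted p under 0.05). For MFAP3 the breed difference of males minus that of females was -1.88 (limma unadjusted p = 0.153).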

How the data were processed

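Members, gene lists and tests were chosen with earlier results of these data known, so no list is independent evidence. The authors deposited linear intensities from GCRMA (per the submitters' notes on processing), with no version or settings given in the labels. Log2 of these deposited intensities was taken after a floor at 1, which altered 0 values. Of 43035 probe sets 175 controls were left out, and those with log2 over 5 in at least 3 of 33 columns were kept. The probe set with the highest mean stood for each gene. Symbols came from the platform annotation, and gene order and chromosomes from the RefSeq table of UU_Cfam_GSD_1.0. limma 3.58.1 (lmFit and eBayes, R 4.3.3) was run on the 17 lines with sex as a covariate and Benjamini-Hochberg adjustment, and was tested on simulated data. Lists were described by counts and medians with no set test. The genes named were the calls, the genes with the smallest p up to 20, up to 3 members per list by size of difference and neighbours of calls; HERC6, LOX, MFAP4, FBLN2, TBCB, HADH, BRK1 and some list members with an unadjusted p under 0.05 were added after their values were seen. Arrays have no depth, and their number limits the precision. Title prefixes may mark batches: prefix 1 held 2 Rottweiler and 1 Golden Retriever lines and prefix 2 the other 8 and 6, line 5 of the Golden Retrievers being averaged with a prefix 3 array of its dog (r = 0.912). Of the other-breed lines, the Saint Bernard line had prefix 1, 1 German Shepherd line prefix 3 and the others prefix 2. Leaving out each line, covariates, filters, normalization and weights were the alternatives.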

Additional observations from a re-analysis of the deposited data

Results flagged for a closer look

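Of 46 groups of values tested for a sample far from the others, 5 had one, and chance gives about 1 in 20 groups. MFAP3 in Golden Retriever line 6 was 2.85, far below the other Golden Retriever lines. UCHL1 in Rottweiler line 9 was 11.81, the lowest of its breed. AKR1B1 in Golden Retriever line 5 was 9.63, the lowest of its breed. In Golden Retriever line 1, EVA1C was 5.75 and CADM1 was 10.17, the highest of the breed for both genes. In data outside the breed comparison, MFAP3 was 10.11 in the tumour tissue of a Golden Retriever with no line in the test, above all other-breed lines.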

How the results depend on the processing

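Over 37 settings, of which 17 left out 1 line each, MFAP3 kept its direction in all 37 and passed in 26 (adjusted p from 6.13e-07 to 0.868). ZBED1 kept its direction in all 36 in which it was tested and passed in 23 (adjusted p from 0.0011 to 0.722). Of 67 genes followed, 64 kept one direction. The 2 breed calls became 1 within title prefix 2 (EVA1C, adjusted p = 0.031; MFAP3 and ZBED1 both 0.102), 1 in males alone, 1 in females alone, 1 with a filter at log2 over 7, 1 after quantile normalization, 1 with the actin measure as a covariate, 0 with the closest pair of Rottweiler lines averaged, 0 with no filter on dim probe sets and 271 with array weights. There were 3 calls with no sex covariate, PUS1 being the third (adjusted p = 0.0474), and 3 with the prefix 3 array alone for Golden Retriever line 5 (UCHL1, 0.0449). Leaving out 1 line gave 0 to 5 calls, 14 to 17 higher G2/M genes, 8 to 22 higher G1/S genes, 5 to 7 lower elastic fibre genes and 12 to 29 higher chromosome 14 genes. In females alone there were 0 higher G2/M genes, 0 higher G1/S genes and 3 lower elastic fibre genes, and in males alone 6 higher chromosome 14 genes. With the G2/M level as a covariate, an alternative chosen after seeing the data whose members enter the covariate, the counts were 0, 0, 3 and 12. With the actin measure, also chosen after seeing the data, the first and second were 6 and 6, and chromosome 14 had 12. The share of all genes in each of these settings is not given beside the counts. POSTN reversed to 0.24 in females alone and to 1.31 with the G2/M covariate, which also turned MFAP5 to 0.11 and ORC1 to -0.15. The cause was not tested, beyond the smaller number of lines in males or females alone. No paired analysis was possible because the lines of the breeds come from different dogs and their numbers are names. The closest pair was Rottweiler lines 3 and 7, of separate dogs (r = 0.976).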
